A study of Mus musculus with 28 samples.

Results

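Transcripts of 10 core genes of the Notch pathway were followed through the sorted cells of the mouse mammary gland. They are the receptors Notch1, Notch2, Notch3 and Notch4, the ligands Dll1, Dll4, Jag1 and Jag2, and the target genes Hes1 and Hey1. The 10 genes were picked by name from the 50600 gene IDs with read counts, through the symbol that the GENCODE M21 annotation gives each ID.

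The libraries came from 7 adult female C57BL/6 mice carrying PdgfrαCre and R26mTmG, of which 4 were left untreated and 3 were given estrogen plus progesterone (E+P). In these animals Cre is driven by the Pdgfrα promoter, so a cell that has made Cre, and every cell descended from it, carries GFP, while all other cells keep tdTomato. Both colors were sorted from the stroma (CD49f-EpCAM-) and from luminal cells (CD49flo EpCAM+) after removal of CD31+, Ter119+ and CD45+ cells, which gave 4 libraries per mouse, 28 in all and 8 groups of lineage, color and treatment. All mice carried both alleles, so there was no group without Cre, and GFP records past as well as present activity of the promoter. Total RNA was read by stranded low-input sequencing, and levels are given as CPM, which are read counts scaled for library size with TMM factors.

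The total count per library lay between 8623383 and 24583803 (median 15329083.5). A floor of 3 counts corresponded to between 0.116 and 0.302 CPM, which covers counting error only. Marker genes were read as a check of the sorted labels. Luminal libraries held Krt8 at group means between 1316 and 2114 CPM. Of 5 basal markers (Krt5, Krt14, Krt17, Trp63, Oxtr), Krt5 did not exceed a group mean of 0.470 CPM there, and the highest of the others was Oxtr, at 92.0 CPM in E+P-treated GFP+ luminal cells. The 5 together summed to a mean of 126 CPM in that group. GFP+ stroma held Pdgfra at 2026 CPM in untreated and 2363 CPM in E+P-treated mice, against 158 and 61.3 CPM in tdTomato+ stroma. The tdTomato+ stroma held genes of several other cell kinds. Means there were 2104 and 2291 CPM for Rgs5 of pericytes, 3051 and 1960 CPM for Myh11 of smooth muscle, 2096 and 5094 CPM for Acta1 of skeletal muscle, and 116 and 134 CPM for Pax7 of satellite cells. Endothelial Pecam1 and Cdh5 were also above their other groups there, at 17.0 and 21.4 CPM in untreated and 38.4 and 75.1 CPM in E+P-treated mice. The sum of all 8 endothelial markers read went the other way in untreated mice, with a mean of 103 CPM in tdTomato+ and 224 CPM in GFP+ stroma. With E+P it was 207.5 and 144.5 CPM. Luminal epithelial markers (Krt8, Krt18, Krt19, Epcam, Cldn3, Cldn4) were uneven between mice in tdTomato+ stroma. They summed to 76.7, 284, 455 and 18.2 CPM there in untreated and 8.01, 37.6 and 3.49 CPM in E+P-treated mice. Their means were 38.2 and 4.74 CPM in GFP+ stroma and between 4417 and 6859 CPM in the luminal groups. In bulk libraries such as these, fewer cells of a kind and less RNA per cell cannot be told apart.

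Notch receptors sit in the cell membrane and are switched on by ligands of the Delta-like and Jagged families on a neighboring cell. Binding lets ADAM proteases and then the γ-secretase complex cut the receptor, and its freed intracellular part joins RBPJ and Mastermind proteins on DNA to turn on targets, among them the Hes and Hey repressors. In the mammary gland the pathway is known for its part in luminal fate, and in vessels Notch3 and Heyl are known from the mural cells, pericytes and smooth muscle.

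Promoters of 8 of the 10 genes could be read from RefSeq (build GRCm38.p6), and 4 promoters are shown because the results below turn on their genes. Each runs from 250 bases before the start of the gene to 5 bases after it. Capitals mark the core of the RBPJ site, TGGGAA on either strand, in Hey2 and Lfng, and CACGCG on either strand, a site that Hes and Hey proteins can bind, in Jag1. Notch3 held neither sequence and has no capitals.
Notch3, chr17:32166886-32167140, minus strand: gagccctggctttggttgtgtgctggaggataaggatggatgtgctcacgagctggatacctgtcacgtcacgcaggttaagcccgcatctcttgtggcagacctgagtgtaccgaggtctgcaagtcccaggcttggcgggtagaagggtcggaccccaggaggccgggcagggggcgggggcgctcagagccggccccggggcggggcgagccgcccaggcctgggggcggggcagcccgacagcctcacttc
Jag1, chr2:137116516-137116770, minus strand: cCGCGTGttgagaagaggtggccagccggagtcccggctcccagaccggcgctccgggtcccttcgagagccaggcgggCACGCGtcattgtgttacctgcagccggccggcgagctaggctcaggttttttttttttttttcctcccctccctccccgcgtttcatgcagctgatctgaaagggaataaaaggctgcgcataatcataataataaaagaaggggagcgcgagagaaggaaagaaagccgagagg
Hey2, chr10:30842779-30843033, minus strand: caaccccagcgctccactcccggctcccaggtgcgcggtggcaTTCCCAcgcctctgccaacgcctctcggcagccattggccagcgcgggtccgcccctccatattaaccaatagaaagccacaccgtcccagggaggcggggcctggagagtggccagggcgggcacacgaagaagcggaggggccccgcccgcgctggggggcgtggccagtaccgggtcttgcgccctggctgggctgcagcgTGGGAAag
Lfng, chr5:140607091-140607345, plus strand: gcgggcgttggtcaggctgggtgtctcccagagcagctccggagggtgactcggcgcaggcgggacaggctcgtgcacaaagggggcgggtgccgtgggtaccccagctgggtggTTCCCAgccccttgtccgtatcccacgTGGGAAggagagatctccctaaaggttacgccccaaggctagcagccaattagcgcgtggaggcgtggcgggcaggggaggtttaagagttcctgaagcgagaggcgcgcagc

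Hey2, a repressor of the Hey family, and Lfng, the Lunatic fringe glycosyltransferase that adds sugar to Notch receptors, each held 2 copies of TGGGAA. The first bases of these copies lay at -207 and -3 in Hey2 and at -135 and -108 in Lfng, and the copy at -108 in Lfng overlapped an E-box (CACGTG) that starts at -112. Of all 32851 promoters in the table, over their whole length to 50 bases after the start, 25.6% held TGGGAA at least once and 3.79% held it 2 or more times. The sequence was in 0 of the 9 promoters listed for the receptors and ligands over the same length. Nrarp, another target gene read below, also held 0 copies. No promoter was listed for the targets Hes1, Hey1 and Heyl. CACGCG, found in 9.27% of all promoters, was in those of Notch2, Dll4 and Jag2 once, in 1 of the 2 listed for Dll1, and 2 times in that of Jag1. Lfng held it once as well, on the minus strand with its first base at -55, left in lower case above. These are matches of letters in a short window, and binding was not measured.

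The 4 receptors each had their own order of groups. Notch1 (ENSMUSG00000026923.15, chr2:26457903-26516663), a receptor of luminal and many other cells, was highest in GFP+ luminal cells, at 426, 548, 372 and 613 CPM in the untreated mice and 612, 727 and 729.9 CPM in the E+P-treated mice. In tdTomato+ luminal cells it was at 225, 176, 208 and 287 CPM and, with E+P, at 354, 317 and 250.5 CPM. All 7 GFP+ luminal libraries lay above all 7 tdTomato+ luminal libraries. In stroma the colors stood the other way round, with 105, 94.6, 104 and 105 CPM in untreated GFP+ cells, 151, 186 and 136 CPM in GFP+ cells with E+P, 141, 238, 225 and 196 CPM in untreated tdTomato+ cells, and 309, 239.7 and 253 CPM in tdTomato+ cells with E+P. Between the highest and the lowest group, the ranges of tdTomato+ luminal cells and tdTomato+ stroma overlapped within each treatment.

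Notch2 (ENSMUSG00000027878.11, chr3:98013527-98150361) was the receptor of the GFP+ stroma, at 599, 559, 629.9 and 596 CPM in untreated and 600.3, 632 and 554 CPM in E+P-treated mice. In tdTomato+ stroma it was at 281, 304, 365 and 250.4 CPM and, with E+P, at 325, 303 and 302 CPM. The 2 colors of stroma did not overlap. GFP+ luminal cells ran from 142 to 222 CPM in untreated and from 121 to 144 CPM in E+P-treated mice, and tdTomato+ luminal cells from 95.2 to 109.5 CPM and from 102 to 122 CPM. All 14 luminal libraries thus lay below all 14 stromal libraries for this gene.

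Notch3 (ENSMUSG00000038146.7, chr17:32120820-32166852), the receptor of mural cells, had the widest range of the 4. In tdTomato+ stroma it reached 803, 1008, 809 and 687 CPM in untreated and 1041, 861 and 876 CPM in E+P-treated mice. Its GFP+ counterpart was far lower, with 30.9, 20.4, 30.0 and 18.1 CPM without and 11.7, 7.71 and 9.89 CPM with E+P. The GFP+ stroma was therefore lowest of all groups, the E+P-treated libraries lay below the untreated ones, and luminal libraries of either color stood in between, from 93.8 to 176 CPM. Notch4 (ENSMUSG00000015468.14, chr17:34564268-34588503), a receptor known from endothelium, was near the floor in luminal cells and GFP+ stroma, where group means were between 0.299 and 1.24 CPM. It was found in tdTomato+ stroma, with 5.70, 2.26, 3.25 and 2.62 CPM in the untreated mice and 1.48, 2.12 and 4.04 CPM in those given E+P.

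Of the ligands, Jag1 (ENSMUSG00000027276.7, chr2:137081456-137116644) was the only one above 30 CPM. It was at 140.0, 112, 131 and 141 CPM in untreated GFP+ stroma and 170.0, 156 and 137 CPM with E+P, and at 163, 157, 139 and 156 CPM in untreated tdTomato+ stroma and 181, 155 and 159 CPM with E+P. Each stromal group overlapped the next in the order of means. Luminal cells were lower and split by color, with 41.1, 53.9, 51.3 and 55.7 CPM in untreated tdTomato+ cells, 42.2, 37.0 and 40.3 CPM in tdTomato+ cells with E+P, 14.6, 5.74, 18.2 and 9.67 CPM in untreated GFP+ cells and 14.8, 9.69 and 9.49 CPM in GFP+ cells with E+P. All 7 GFP+ luminal libraries lay below all 7 tdTomato+ ones.

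Dll1 (ENSMUSG00000014773.13, chr17:15367354-15376872), a Delta-like ligand, was highest in tdTomato+ stroma, at 19.9, 25.01, 10.9 and 10.7 CPM without and 15.8, 12.2 and 10.6 CPM with E+P. GFP+ luminal cells followed with 6.33, 5.84, 5.48 and 2.67 CPM and, with E+P, 1.16, 4.63 and 4.79 CPM. The libraries of GFP+ stroma and tdTomato+ luminal cells did not exceed 4.21 CPM. Dll4 (ENSMUSG00000027314.6, chr2:119325784-119335962), the Delta-like ligand best known from endothelium, was low everywhere and uneven between mice in tdTomato+ stroma, at 5.89, 1.08, 3.12 and 8.45 CPM without and 3.16, 8.35 and 16.1 CPM with E+P. Over the same 7 libraries the summed endothelial markers ran from 67.1 to 278 CPM. Jag2 (ENSMUSG00000002799.5, chr12:112907819-112929776), the second Jagged ligand, had its highest group means in tdTomato+ stroma, 3.25 ± 1.09 CPM (SD, n = 4) and 3.94 ± 2.34 CPM (SD, n = 3), and did not exceed 0.465 CPM in any library of GFP+ stroma.

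Of the targets, Hes1 (ENSMUSG00000022528.7, chr16:30064384-30067796) was well above the floor in every group. It was at 79.6, 48.1, 92.9 and 90.2 CPM in untreated and 93.9, 129 and 175 CPM in E+P-treated GFP+ luminal cells, and at 99.5, 147, 109.9 and 86.2 CPM in untreated and 51.4, 76.4 and 92.3 CPM in E+P-treated tdTomato+ luminal cells. GFP+ stroma ran from 31.2 to 46.3 CPM without and from 56.9 to 68.0 CPM with E+P, and tdTomato+ stroma from 64.0 to 72.9 CPM and from 52.3 to 72.2 CPM. Untreated GFP+ stroma was the lowest group and overlapped no neighbor in the order. Hey1 (ENSMUSG00000040289.8, chr3:8663359-8667256) differed far more between groups. Untreated GFP+ luminal cells held 84.2, 167, 66.7 and 107 CPM and E+P-treated ones 20.4, 64.8 and 55.9 CPM, while tdTomato+ luminal cells held 25.4, 18.2, 23.3 and 29.0 CPM without and 2.16, 3.76 and 3.09 CPM with E+P. In stroma the tdTomato+ cells were higher, with 22.4, 17.9, 18.2 and 15.2 CPM without and 19.7, 12.1 and 13.0 CPM with E+P, against at most 5.27 CPM in GFP+ stroma.

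**Figure D1:**
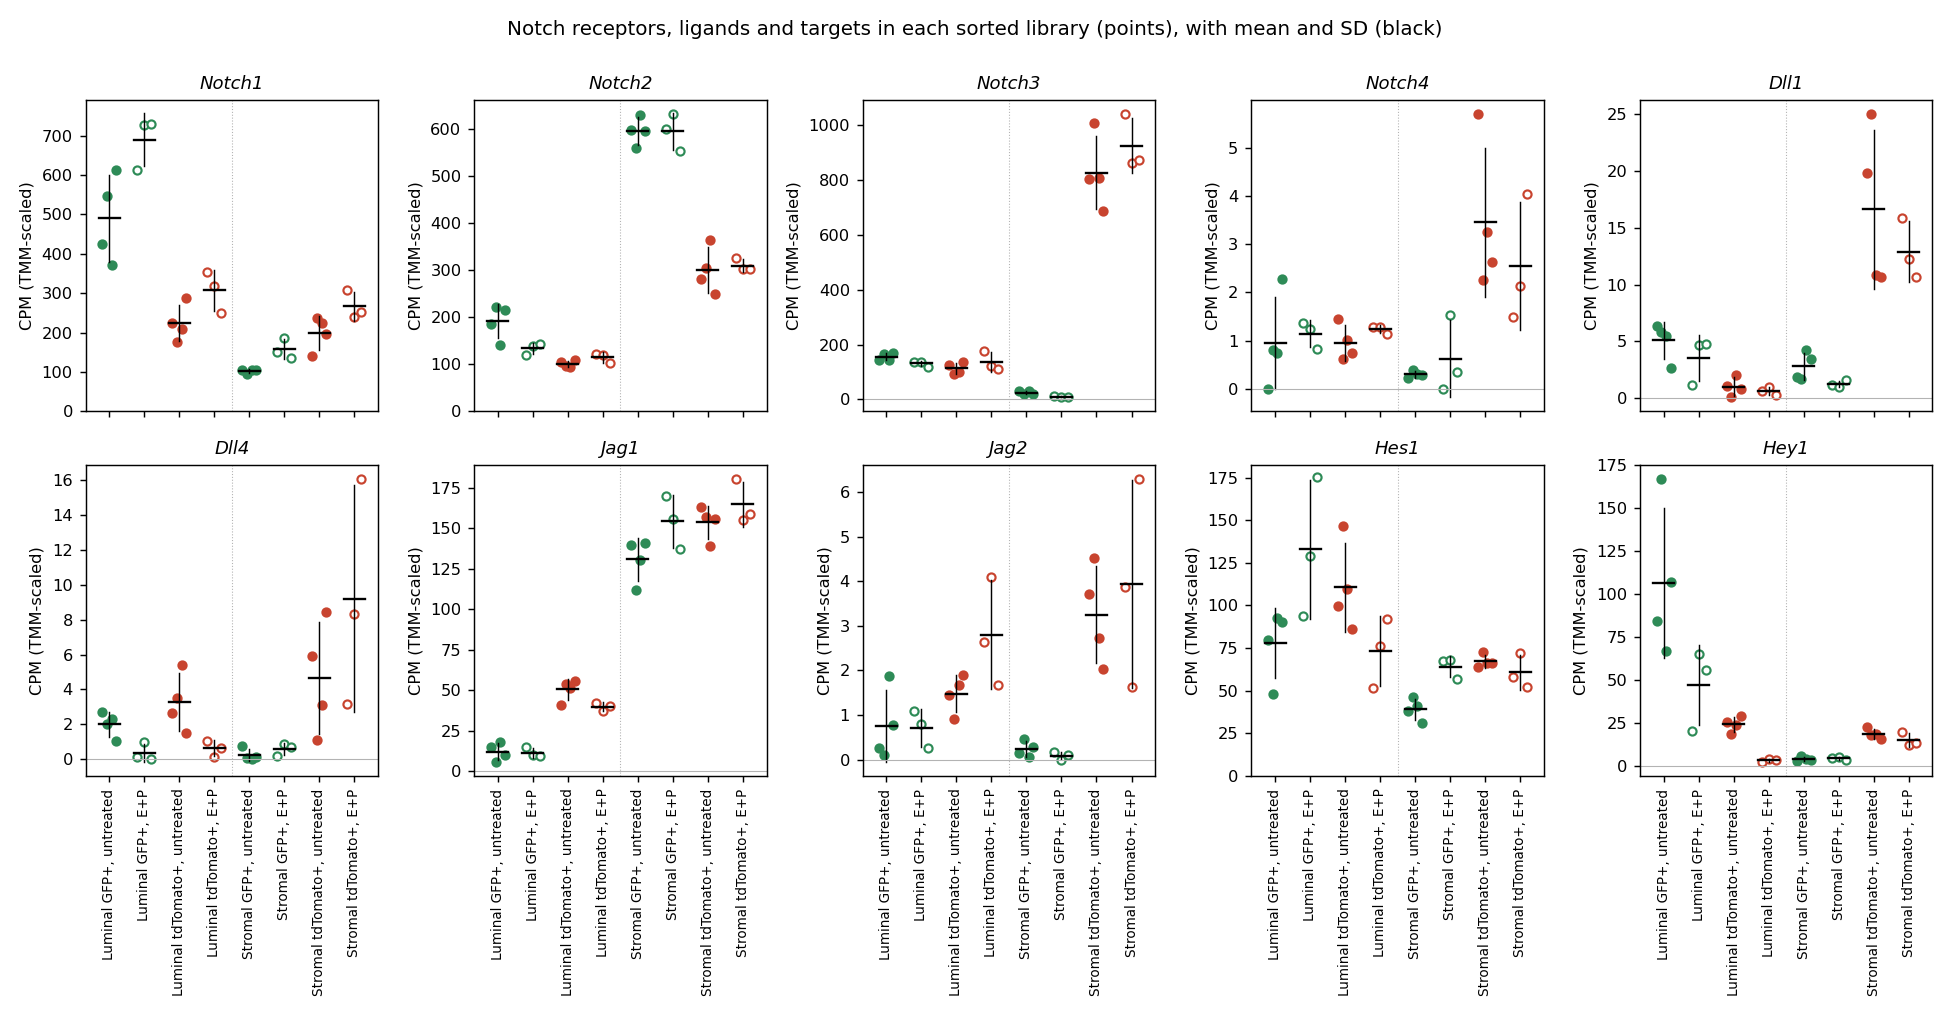
CPM after TMM scaling (vertical axis, linear, one scale per gene) of the 10 genes in the 8 groups, with GFP+ libraries in green, tdTomato+ libraries in red, untreated mice as filled and E+P-treated mice as open points, and the mean and SD of each group in black. Notch3 stood above 680 CPM in all 7 tdTomato+ stromal libraries and below 31 CPM in all 7 GFP+ stromal libraries, while Notch1 and Hey1 were highest in GFP+ luminal cells.

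To compare genes with each other, CPM were divided by the exon length of each gene in kilobases, and each gene was taken as a share of the summed receptors or ligands of the same library. In untreated GFP+ stroma Notch2 made up 84.3% ± 0.858 (SD, n = 4) of receptor transcripts on this scale, whereas in untreated tdTomato+ stroma Notch3 made up 70.6% ± 3.20 (SD, n = 4). Notch1 took 47.7% ± 2.52 (SD, n = 4) in untreated GFP+ and 39.8% ± 2.35 (SD, n = 4) in untreated tdTomato+ luminal cells, and Notch2 and Notch3 shared nearly all of the rest. With E+P the share of Notch1 in GFP+ luminal cells was 62.6% ± 2.15 (SD, n = 3), with every E+P-treated library above every untreated one. These shares depend on the length used. With the longest transcript in place of all exon bases, an alternative chosen after seeing the data, Notch1 took 57.3% and 49.3% in untreated GFP+ and tdTomato+ luminal cells and 71.2% in E+P-treated GFP+ luminal cells, beside 80.3% for Notch2 in untreated GFP+ and 67.2% for Notch3 in untreated tdTomato+ stroma. Among ligands Jag1 had the highest mean share in all 8 groups, from 52.0% ± 12.7 (SD, n = 4) in untreated GFP+ luminal cells, where Dll1 held 31.9% ± 11.1 (SD, n = 4), to 98.3% ± 0.609 (SD, n = 3) in E+P-treated GFP+ stroma. In 1 untreated GFP+ luminal library Dll1 led, with 47.6% against 33.9% for Jag1.

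**Figure D2:**
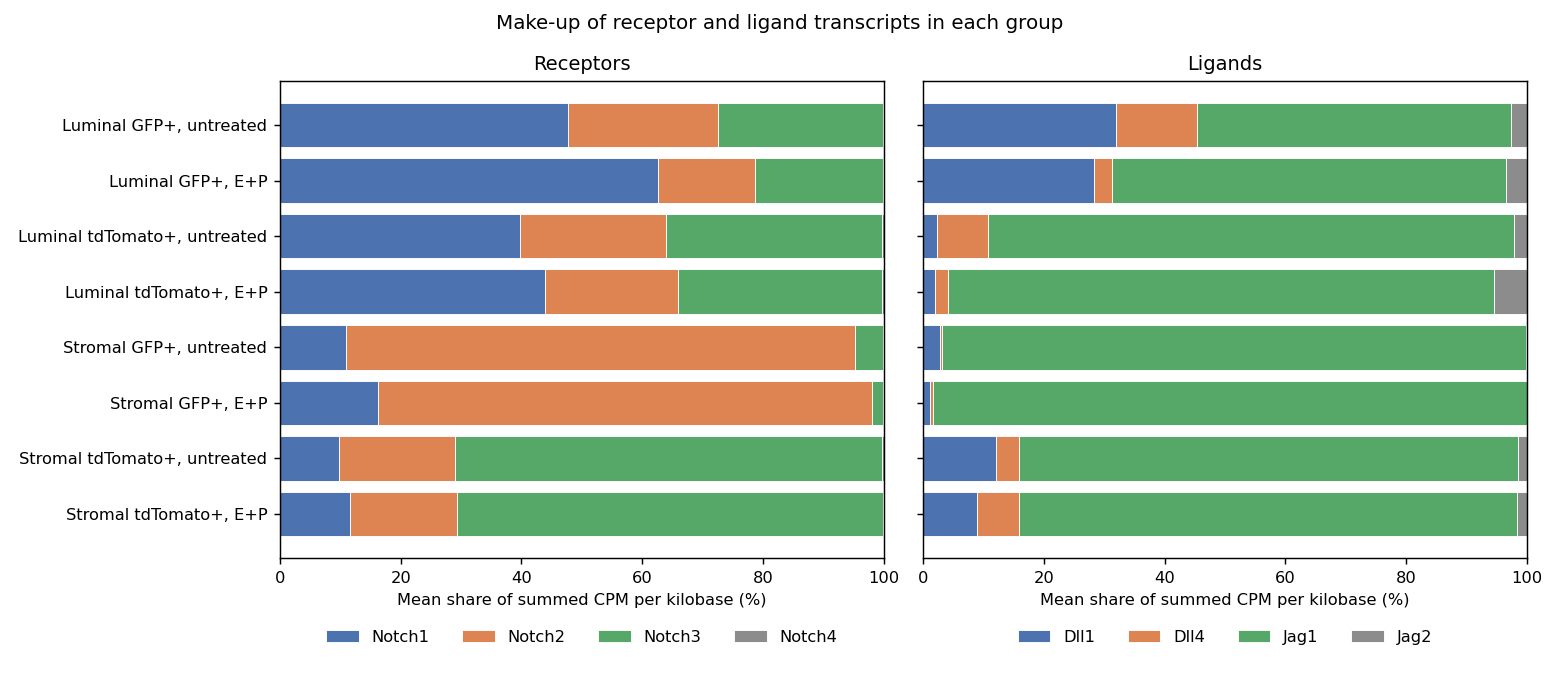
Mean share of each receptor (left) and ligand (right) in the summed CPM per kilobase of exon of its family (horizontal axis, percent), in the 8 groups (rows). Notch2 fills 84.3% of the receptor bar of untreated GFP+ stroma and Notch3 70.6% of that of untreated tdTomato+ stroma, while Jag1 is the widest ligand segment in each row.

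Which Notch genes differ between GFP+ and tdTomato+ luminal cells was asked over both treatments together. Hey1 was 8.09-fold, Dll1 5.23-fold, Notch1 2.17-fold and Notch2 1.46-fold higher in GFP+ luminal cells, and Jag1 was 3.90-fold lower. These 5 of the 10 genes passed an adjusted p of 0.01, against 34.7% of all genes tested. The log2 fold changes were 3.02 ± 0.29 (SE, adjusted p = 7.18e-06) for Hey1, 2.39 ± 0.51 (SE, adjusted p = 0.00160) for Dll1, 1.12 ± 0.14 (SE, adjusted p = 2.02e-05) for Notch1, 0.54 ± 0.10 (SE, adjusted p = 0.000429) for Notch2 and -1.96 ± 0.21 (SE, adjusted p = 8.98e-06) for Jag1. Hey1, Dll1, Notch1 and Jag1 lay on the same side in 7 of 7 mice (exact two-sided permutation test by sign flips, p = 0.0156, which is the lowest value 7 pairs can give) and 34.6% of all genes tested had one side in every mouse. Notch2 was higher in the GFP+ cells of 6 of 7 mice. The difference of Dll1 was no longer called without E+P-treated mouse 3 (log2 fold change 2.09, adjusted p = 0.0154).

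The remaining 5 genes were not called between the luminal colors in edgeR, while DESeq2 and limma-voom each called 6 of the 10. The added gene was Jag2, with a log2 difference of -1.48 ± 0.49 (SE, adjusted p = 0.0231) in edgeR, which passed in DESeq2 (adjusted p = 0.00744), in limma-voom (adjusted p = 0.00691), with the mouse as a block (adjusted p = 0.00543) and without untreated mouse 3 (adjusted p = 0.00503). Notch3 (0.18 ± 0.12, SE), Hes1 (0.15 ± 0.19, SE), Notch4 (-0.09 ± 0.53, SE) and Dll4 (-0.70 ± 0.62, SE) had adjusted p values between 0.231 and 0.905. Within untreated mice alone 4 of the 10 genes were called (15.4% of all genes tested), with Notch1, Notch2 and Hey1 higher and Jag1 lower, and within E+P-treated mice 3 were called (25.4%), with Notch1 and Hey1 higher and Jag1 lower. The log2 difference of Hey1 was 2.13 ± 0.36 (SE) without and 3.90 ± 0.46 (SE) with E+P.

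Luminal progenitor and hormone-sensing markers moved with the same contrast. The 5 progenitor markers (Elf5, Kit, Aldh1a3, Cd14, Csn3) summed to between 1938 and 3168 CPM in untreated GFP+ and between 224 and 878 CPM in untreated tdTomato+ luminal cells. The 5 hormone-sensing markers (Esr1, Pgr, Prlr, Foxa1, Cited1) summed to between 258 and 1691 CPM in the former and between 3419 and 5042 CPM in the latter, and none of either list was below 1 CPM in these 2 groups. Sums of the 5 basal markers in GFP+ luminal cells ran from 41.6 to 85.5 CPM without and from 116.5 to 132 CPM with E+P. In tdTomato+ luminal cells they ran from 7.60 to 18.3 CPM without and from 35.4 to 62.5 CPM with E+P. Their part in the differences of the Notch genes was not tested. Sox10, used here as a Schwann cell marker, was at 181 CPM in untreated GFP+ luminal cells, and its part was not tested either.

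In stroma the same contrast was called for all of the genes but Jag1. Notch3 was 56.8-fold lower in GFP+ than in tdTomato+ stroma, Jag2 24.8-fold, Dll4 17.6-fold, Dll1 7.87-fold, Notch4 6.70-fold, Hey1 4.26-fold, Notch1 1.84-fold and Hes1 1.29-fold lower, and Notch2 was 1.93-fold higher. Thus 9 of 10 genes were called, 8 of them lower, against 42.0% of all genes tested and 21.3% called lower. The median log2 fold change of the 10 genes was -2.42, beside -0.01 over all genes tested. The genes were chosen with earlier results of these data known, so such counts and medians describe the set and do not test it. On the log2 scale the difference was -5.83 ± 0.17 (SE, adjusted p = 1.11e-13) for Notch3 and 0.95 ± 0.09 (SE, adjusted p = 8.20e-08) for Notch2. It was -2.09 ± 0.20 (SE, adjusted p = 1.29e-07) for Hey1 and -2.98 ± 0.28 (SE, adjusted p = 8.71e-08) for Dll1. For 8 of the 9 genes the side was the same in 7 of 7 mice, as for 41.3% of all genes tested. The exception was Hes1, lower in the GFP+ stroma of 5 of 7 mice, with a log2 fold change of -0.37 ± 0.11 (SE, adjusted p = 0.00707).

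Hes1 was at -0.80 ± 0.14 (SE, adjusted p = 0.000194) within untreated and 0.06 ± 0.16 (SE, adjusted p = 0.793) within E+P-treated mice. Its call was lost without any 1 of the mice other than untreated mouse 2, with edgeR adjusted p values from 0.0113 to 0.0414, with no filter on low counts (adjusted p = 0.0363) and with all 28 libraries in one fit (adjusted p = 0.0634). Jag1 was the gene that was not called, with a log2 difference of -0.18 ± 0.09 (SE, adjusted p = 0.0851). For Notch4, Dll4 and Jag2 the folds rest on 29 counts or fewer per library of GFP+ stroma. The log2 difference of Notch4 moved from -2.74 to -3.64 without E+P-treated mouse 2, and that of Dll4 from -4.14 to -5.07 without untreated mouse 1. Within E+P-treated mice alone Notch4 was not called in edgeR (-1.98 ± 0.81, SE, adjusted p = 0.0618).

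Pericyte, smooth muscle, skeletal muscle and satellite cell markers moved with this contrast. The 6 pericyte markers summed to between 2336 and 4642 CPM in untreated tdTomato+ and between 108 and 229.5 CPM in untreated GFP+ stroma, with Rgs5 at 13.3 CPM in the latter. The 5 smooth muscle markers summed to between 1814 and 6806 CPM against 26.4 to 67.9 CPM, the 5 skeletal muscle markers to between 1860 and 9157 CPM against 0.183 to 1.58 CPM, and the 4 satellite cell markers to between 238 and 317 CPM against 0 to 0.367 CPM. The 8 endothelial markers summed to between 67.1 and 148.7 CPM in untreated tdTomato+ and between 188 and 271 CPM in untreated GFP+ stroma, where Tek alone gave 190.2 CPM and Cdh5 gave 2.24 CPM. The 6 fibroblast markers went the other way, with 1141 to 3886 CPM in tdTomato+ and 21670 to 34130 CPM in GFP+ stroma. Their part in the differences of the Notch genes was not tested.

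**Figure D3:**
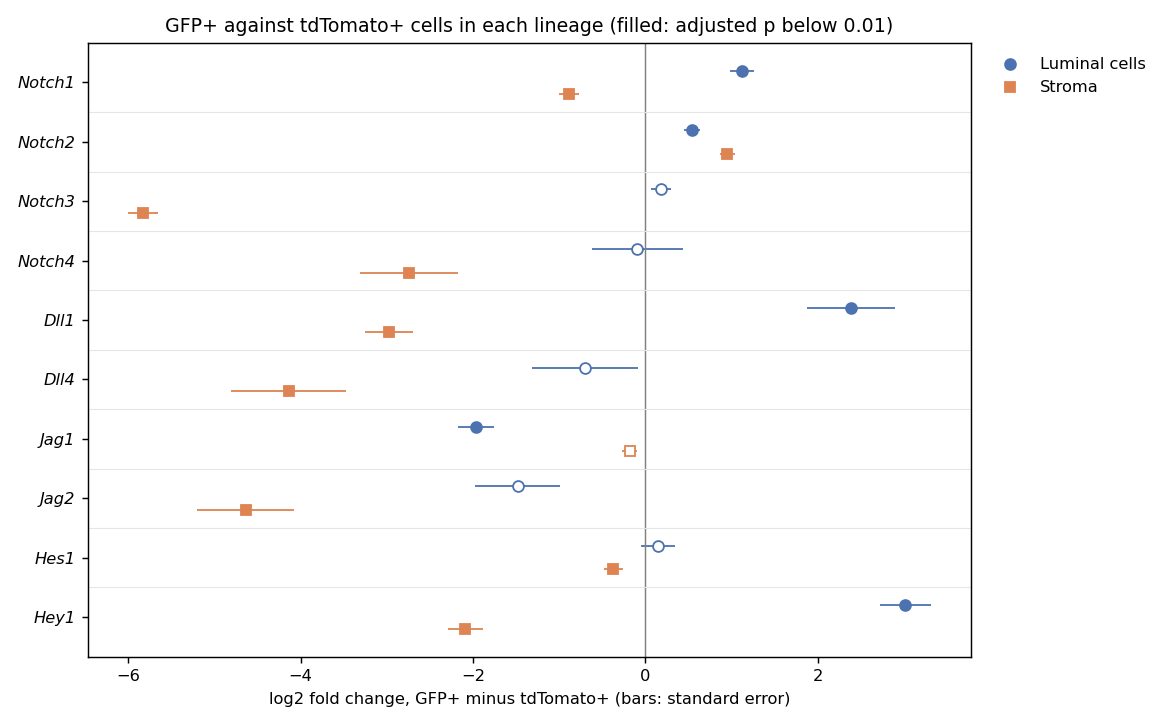
Log2 fold change between GFP+ and tdTomato+ cells (horizontal axis, bars are standard errors) for the 10 genes (rows) in luminal cells (blue circles) and stroma (orange squares), over both treatments, with filled symbols where the adjusted p was below 0.01. Notch1, Dll1 and Hey1 lie to the right of 0 in luminal cells and to the left in stroma, and Notch3 lies at -5.83 in stroma and 0.18 in luminal cells.

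Whether the color difference itself differed between the lineages was tested in a fit of all 28 libraries. It did for 8 of the 10 genes, against 33.2% of all genes tested. Luminal minus stromal, the log2 difference was 6.02 ± 0.20 (SE, adjusted p = 4.73e-17) for Notch3, 5.38 ± 0.59 (SE, adjusted p = 3.69e-08) for Dll1, 5.12 ± 0.35 (SE, adjusted p = 2.10e-11) for Hey1, 2.01 ± 0.19 (SE, adjusted p = 2.14e-09) for Notch1 and 3.18 ± 0.77 (SE, adjusted p = 0.00145) for Jag2. Jag1 was the gene with the opposite sign, at -1.77 ± 0.22 (SE, adjusted p = 3.08e-07). Notch4 (2.67 ± 0.80, SE) and Dll4 (3.45 ± 0.95, SE) passed at adjusted p values of 0.00860 and 0.00458 and no longer passed with the mouse as a block (0.0140 and 0.0135) or in limma-voom (0.0200 and 0.0236), nor did Dll4 with no filter on low counts (0.0131). All 8 genes had the same side in 7 of 7 mice, as did 36.2% of all genes tested. Notch2 (-0.40 ± 0.13, SE, adjusted p = 0.0140) and Hes1 (0.53 ± 0.22, SE, adjusted p = 0.0587) did not pass in edgeR, though Notch2 did in limma-voom (adjusted p = 0.00721), with no filter on low counts (adjusted p = 0.00841) and without untreated mouse 3 (adjusted p = 0.00418), and Hes1 did without untreated mouse 2 (adjusted p = 0.00581). Leaving out 1 mouse ended the call of Notch4 for 5 of the 7 mice and that of Dll4 for untreated mouse 4 and E+P-treated mouse 2, where Dll4 was at 2.12 (adjusted p = 0.248), and that of Jag2 for untreated mouse 3 (2.55, adjusted p = 0.0102). Notch4 was at 3.55 without E+P-treated mouse 2 and Dll4 at 4.26 without untreated mouse 1.

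Further genes of the pathway were read from a list of 54, of which 44 were tested in luminal cells and 46 in stroma. The list holds glycosyltransferases, proteases that cut the receptor, nuclear partners, corepressors, proteins of endocytosis and turnover, and other targets and ligands. In stroma 27 of the 46 were called, 14 higher and 13 lower in GFP+ cells, beside 42.0% of all genes tested. In luminal cells 26 of the 44 were called, 7 higher and 19 lower, beside 34.7% of all genes tested. The median log2 fold change of the list was 0.17 in stroma and -0.11 in luminal cells, beside -0.01 and 0.00 over all genes tested.

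Over both treatments together, 3 of the 4 other targets tested followed the color as Hey1 did. Hey2, Heyl of mural cells, and Nrarp, a target that feeds back on the Notch complex, were lower in GFP+ stroma by log2 fold changes of -4.91 ± 0.29, -3.47 ± 0.16 and -7.47 ± 0.37 (SE), with adjusted p values of 3.70e-10, 2.51e-11 and 1.63e-10. All 3 were higher in GFP+ than in tdTomato+ luminal cells, by 2.28 ± 0.47 for Hey2 and 1.79 ± 0.25 for Nrarp (SE, adjusted p = 0.00134 and 4.83e-05), and by 1.82 ± 0.39 (SE, adjusted p = 0.00157) for Heyl, which did not exceed 5.17 CPM in any luminal library. Within untreated luminal cells alone only Nrarp of the 3 was called (2.97-fold), and within E+P-treated ones Heyl (7.34-fold) and Nrarp (4.00-fold) were. Hey2 was called in neither treatment alone. In untreated mouse 3 Heyl was at 1.66 CPM in GFP+ and 1.73 CPM in tdTomato+ luminal cells. Nrarp in untreated mice was at 81.2, 34.8, 45.9 and 23.2 CPM in the tdTomato+ stroma, while GFP+ stroma gave 0.0757, 0.155, 0.122 and 0.459 CPM. Heyl was at 131, 135, 116 and 123 CPM in the former and 7.11, 9.06, 7.01 and 9.26 CPM in the latter. Hey2 was at 18.7, 20.0, 15.6 and 16.7 CPM in the former and at most 0.984 CPM in the latter. The 2 colors of stroma did not overlap for any of these 3 genes. Hes6, the remaining target tested, was lower in GFP+ luminal cells and not called in stroma, and the other 4 listed targets were too low to test.

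**Figure D4:**
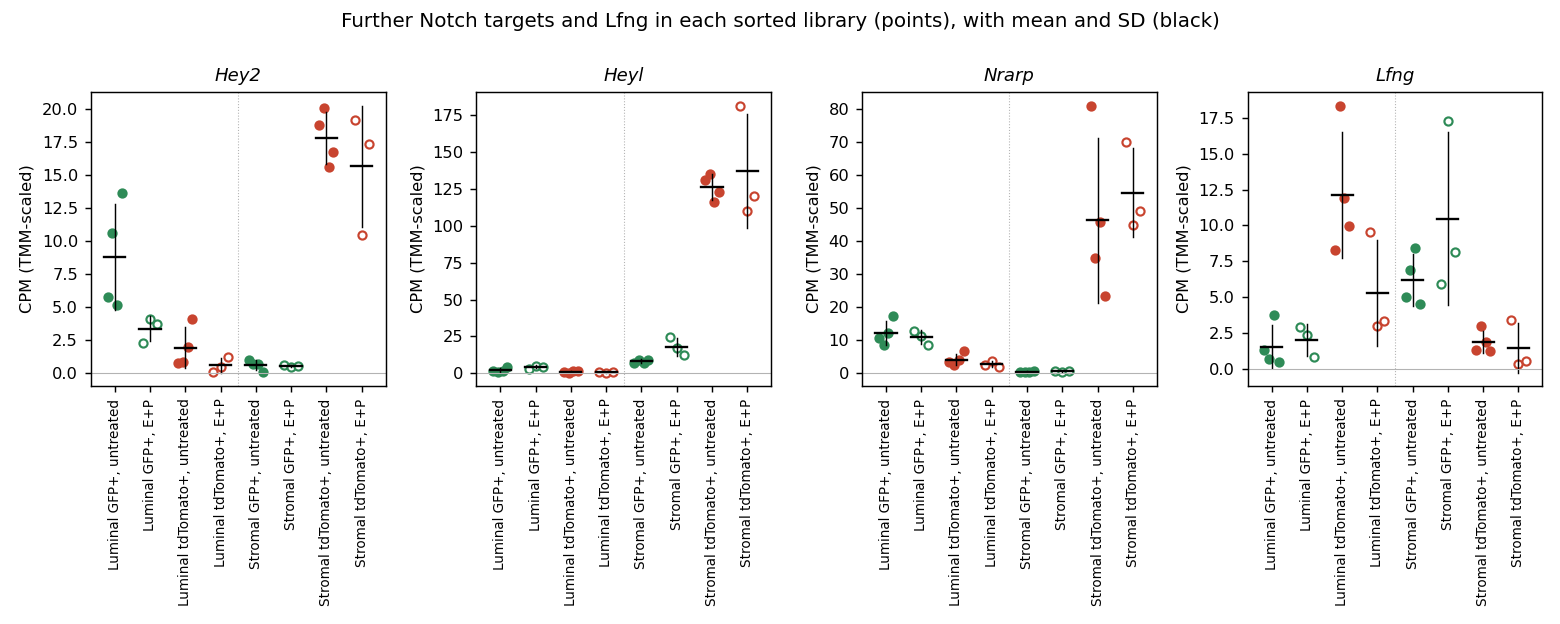
CPM after TMM scaling (vertical axis, linear, one scale per gene) of the targets Hey2, Heyl and Nrarp and of Lfng in the 8 groups, with GFP+ libraries in green, tdTomato+ libraries in red, untreated mice filled and E+P-treated mice open, and mean and SD in black. The 3 targets are highest in tdTomato+ stroma, while Lfng is highest in untreated tdTomato+ luminal cells and higher in GFP+ than in tdTomato+ stroma.

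Genes that modify or cut the receptor were read against the share of all genes called in the same direction, which was 20.6% higher in GFP+ stroma and 19.0% lower in GFP+ luminal cells. All 4 glycosyltransferases tested were higher in GFP+ stroma over both treatments, led by Lfng (2.27 ± 0.44, SE, adjusted p = 0.000394) and Pofut1 (1.19 ± 0.13, SE, adjusted p = 8.13e-07), and 2 of 4 were lower in GFP+ luminal cells, where Lfng had a log2 fold change of -2.18 ± 0.47 (SE, adjusted p = 0.00187). Within untreated stroma alone only Pofut1 of the 4 was called, and within E+P-treated stroma Lfng and Pofut1 were. Luminal levels of Lfng in untreated mice were 8.31, 18.4, 11.9 and 9.96 CPM for the tdTomato+ cells, against 1.27, 0.704, 3.71 and 0.471 CPM for the GFP+ cells. With E+P they were 9.53, 2.95 and 3.33 CPM against 2.92, 2.32 and 0.791 CPM, and Lfng was not called there. Of the 10 genes for cutting, 7 were lower and 0 higher in GFP+ luminal cells, among them Adam10 (-2.03 ± 0.24, SE), Aph1c (-1.92 ± 0.22, SE) and Psen2 (-1.35 ± 0.19, SE). Within untreated luminal cells alone 2 of these 10 were called lower, Adam10 and Aph1c, and within E+P-treated ones 7 were. Of all genes tested, 15.4% and 25.4% were called in either direction in these 2 comparisons. In stroma 5 of the 10 were higher in GFP+ cells, with Adam17 at 1.83 ± 0.14 (SE), and Psen2 was lower, at -1.50 ± 0.13 (SE). At 8 of the 10 the color difference differed between the lineages, as for 33.2% of all genes tested, each time further towards lower values in luminal cells.

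Among nuclear partners Maml2, a Mastermind coactivator, was higher in GFP+ luminal cells, at 1.91 on the log2 scale ± 0.11 (SE, adjusted p = 3.55e-07), and 2 of the 8 genes in this group were lower. Of the 6 corepressors 4 were lower and 0 higher in GFP+ stroma, where 21.3% of all genes tested were lower. In the endocytosis and turnover group Fbxw7, which marks cleaved Notch for breakdown, was higher in GFP+ luminal cells (0.85 ± 0.13, SE), Numbl, a relative of the Notch inhibitor Numb, was higher in GFP+ stroma (1.13 ± 0.11, SE), and Neurl1a, a Neuralized ubiquitin ligase, was lower there (-5.67 ± 0.62, SE).

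Stroma and luminal cells were then compared over colors and treatments. Jag1 was 6.56-fold, Notch2 3.24-fold and Dll1 2.84-fold higher in stroma, and Hey1 was 3.05-fold, Notch1 2.28-fold and Hes1 1.69-fold lower. These 6 of 10 genes were called, against 63.5% of all genes tested, so the share was near that of the background. The log2 fold changes were 2.71 ± 0.12 (SE) for Jag1, 1.70 ± 0.07 (SE) for Notch2 and -1.19 ± 0.09 (SE) for Notch1, with adjusted p values of 7.17e-17, 1.19e-17 and 1.32e-11. For these 3 genes the side was the same in 7 of 7 mice, as for 58.1% of all genes tested.

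Within each color the lineages were also compared, and 7 of 10 genes were called among GFP+ cells (52.5% of all genes tested) and 7 of 10 among tdTomato+ cells (59.3%). Notch3 was 9.22-fold lower in stroma among GFP+ cells and 7.04-fold higher in stroma among tdTomato+ cells, and was not called over both (log2 fold change -0.19 ± 0.09, SE, adjusted p = 0.0679). Hey1 was 18.0-fold lower in stroma among GFP+ cells (-4.17 ± 0.26, SE, adjusted p = 6.53e-13) and 1.94-fold higher among tdTomato+ cells (0.95 ± 0.24, SE, adjusted p = 0.00102). Among tdTomato+ cells it was higher in stroma in the 3 E+P-treated mice and lower in stroma in the 4 untreated mice. Dll1 was 18.3-fold higher in stroma among tdTomato+ cells (4.20 ± 0.44, SE, adjusted p = 5.17e-09) and not called among GFP+ cells (-1.18 ± 0.40, SE, adjusted p = 0.0117). Notch1 was lower in stroma among GFP+ cells (-2.19 ± 0.14, SE, adjusted p = 2.40e-13) and not called among tdTomato+ cells (-0.18 ± 0.13, SE, adjusted p = 0.215). Among tdTomato+ cells the calls of Dll4 (2.24 ± 0.62, SE, adjusted p = 0.00264) and Hes1 (-0.49 ± 0.16, SE, adjusted p = 0.00784) were lost with the mouse as a block (adjusted p = 0.0123 and 0.0135). Notch2 and Jag1 were higher in stroma within both colors.

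Of the other pathway genes 35 of 46 were called between lineages, 18 higher and 17 lower in stroma, beside 63.5% of all genes tested. Rbpj, the DNA-binding partner of Notch, was higher in stroma by a log2 fold change of 1.33 ± 0.08 (SE, adjusted p = 7.88e-14), Heyl by 4.74 ± 0.20 (SE, adjusted p = 1.48e-16) and Numbl by 2.59 ± 0.10 (SE, adjusted p = 1.19e-17). The protease Adam10 was lower by -2.34 ± 0.14 (SE, adjusted p = 3.40e-13), and Hes6 by -1.66 ± 0.19 (SE, adjusted p = 1.26e-08). Group means of Adam10 ran from 122 to 648 CPM in luminal cells and from 48.4 to 69.6 CPM in stroma.

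The effect of E+P was tested in each of the 4 sorted subsets, and in each of them edgeR called 0 or 1 of the 10 genes. Of all genes tested, it called 5.96% in GFP+ and 14.1% in tdTomato+ luminal cells. In stroma it called 0.231% in GFP+ and 0.124% in tdTomato+ cells, so few calls were not particular to these 10 genes. Hey1 fell 7.71-fold in tdTomato+ luminal cells, and Notch3 fell 2.55-fold in GFP+ stroma. In GFP+ luminal cells and in tdTomato+ stroma edgeR called 0 of the 10.

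In tdTomato+ luminal cells Hey1 had a log2 fold change of -2.95 ± 0.44 (SE, adjusted p = 0.000529), and the highest E+P-treated library was at 3.76 CPM against 18.2 CPM for the lowest untreated one (exact permutation test of 3 against 4 mice, two-sided p = 0.0286, the smallest possible). It was the 1 gene of 10 called, against 14.1% of all genes tested, and was called whichever mouse was left out. Dll4 had a log2 fold change of -2.43 ± 0.88 (SE, adjusted p = 0.0553), with 2.63, 3.53, 5.42 and 1.47 CPM without and 1.04, 0.128 and 0.666 CPM with E+P, so its groups did not overlap either. This was so for 2 of the 10 genes and for 35.8% of all genes tested. Summed hormone-sensing markers were between 3419 and 5042 CPM without and between 1695 and 2767 CPM with E+P in these cells, and summed progenitor markers between 224 and 878 CPM and between 119 and 202 CPM. Summed basal markers were between 7.60 and 18.3 CPM without and between 35.4 and 62.5 CPM with E+P. Their part in the fall of Hey1 was not tested.

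In GFP+ luminal cells the 10 genes had adjusted p values of 0.024 or more in edgeR, with 5 below an unadjusted p of 0.05, and 5.96% of all genes tested were called. DESeq2 called 2 of the 10 and limma-voom 0. The 2 were Notch2 and Hey1, whose log2 fold changes in edgeR were -0.52 ± 0.14 (SE, adjusted p = 0.0240) and -1.18 ± 0.38 (SE, adjusted p = 0.0571). In edgeR Notch2 passed without untreated mouse 3 (-0.64, adjusted p = 0.00486) and with library size only (-0.62, adjusted p = 0.00718). Hes1 was at 0.77 ± 0.27 (SE, adjusted p = 0.0745), Notch1 at 0.49 ± 0.19 (SE, adjusted p = 0.0961) and Dll4 at -2.46 ± 0.92 (SE, adjusted p = 0.0880). The summed basal markers given above were higher with E+P in these cells too. Most of that sum with E+P was Oxtr, and the part of these markers was not tested. For Hes1, Hey1, Dll4 and Notch3 untreated and E+P-treated libraries did not overlap, which is 4 of 10 genes beside 27.6% of all genes tested.

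The values of Hes1 lay in opposite directions in the 2 luminal subsets, with a log2 fold change of -0.57 ± 0.28 (SE, adjusted p = 0.149) in tdTomato+ cells. The test of the difference between the 2 responses gave 1.34 ± 0.39 (SE, adjusted p = 0.0586) for Hes1, 1.77 ± 0.55 (SE, adjusted p = 0.0778) for Hey1 and -0.73 ± 0.20 (SE, adjusted p = 0.0403) for Notch2. In this test edgeR, DESeq2 and limma-voom each called 0 of the 10, with 4 below an unadjusted p of 0.05 in edgeR, and 2.27% of all genes tested were called.

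In GFP+ stroma Notch3 had a log2 fold change of -1.35 ± 0.21 (SE, adjusted p = 0.00384), with all 3 E+P-treated libraries below all 4 untreated ones (exact permutation test, two-sided p = 0.0286). It was 1 of 41 genes called in this subset, or 0.231% of all genes tested. The direction held with each mouse left out, at log2 fold changes between -1.48 and -1.21, but the call was lost for 5 of the 7 mice, with an adjusted p up to 0.0493 without E+P-treated mouse 2, and in limma-voom (adjusted p = 0.0181). Hes1 was at 0.72 ± 0.15 (SE, adjusted p = 0.0317) and passed in DESeq2 (adjusted p = 0.00274) and with no filter on low counts (adjusted p = 0.00849). Untreated and E+P-treated libraries did not overlap for Notch1, Notch3, Dll1 and Hes1, which is 4 of 10 genes beside 13.0% of all genes tested. Notch2, the main receptor of these cells, had a log2 fold change of 0.01 ± 0.12 (SE).

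The pericyte markers of GFP+ stroma summed to between 108 and 229.5 CPM without and between 100.3 and 125 CPM with E+P, and Rgs5 was at 13.3 and 11.2 CPM. Its smooth muscle markers summed to between 26.4 and 67.9 CPM and between 32.8 and 46.7 CPM. Sums of some other markers were lower with E+P in these cells and did not overlap. Endothelial markers ran from 188 to 271 CPM without and from 137 to 156 CPM with E+P. Luminal epithelial markers ran from 18.5 to 83.1 CPM and from 4.13 to 5.07 CPM, and progenitor markers from 39.0 to 67.6 CPM and from 12.2 to 27.4 CPM. Fibroblast markers overlapped, at 21670 to 34130 CPM and 29720 to 36100 CPM. The part of any of these markers in the fall of Notch3 was not tested.

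In tdTomato+ stroma edgeR, DESeq2 and limma-voom called 0 of the 10 genes, with 1 below an unadjusted p of 0.05 in edgeR, and 0.124% of all genes tested were called. That 1 gene was Notch1, at 0.42 ± 0.16 (SE, adjusted p = 0.214), whose groups did not overlap, as for 10.7% of all genes tested. Notch3 was at 0.17 ± 0.19 (SE, adjusted p = 0.713) here. The difference between the responses of the 2 stromal colors was -1.51 ± 0.28 (SE, adjusted p = 0.0358) for Notch3, short of the threshold in edgeR and limma-voom and past it in DESeq2 (adjusted p = 0.000245) and in edgeR with no filter on low counts (adjusted p = 1.20e-07). In that test edgeR called 0 of the 10, with 2 below an unadjusted p of 0.05, and 0.0450% of all genes tested.

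**Figure D5:**
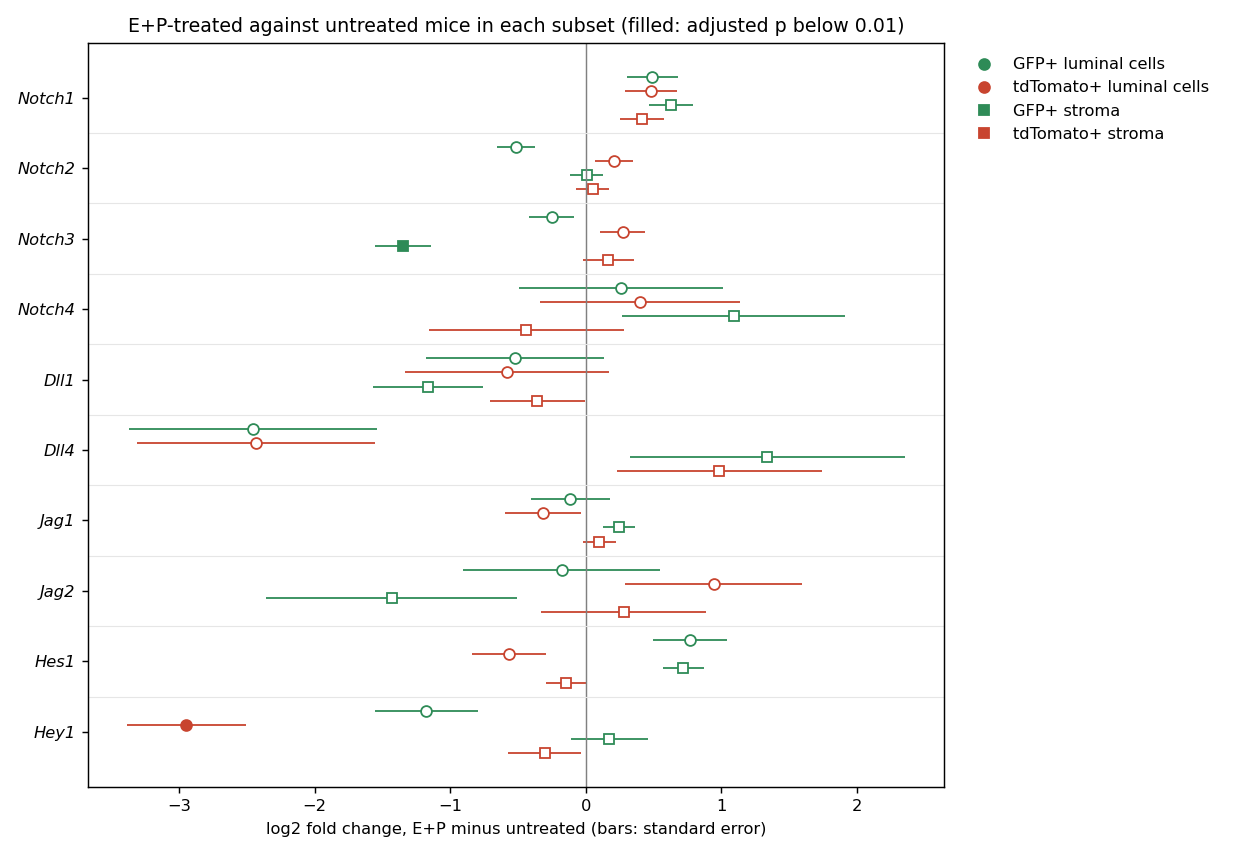
Log2 fold change between E+P-treated and untreated mice (horizontal axis, bars are standard errors) for the 10 genes (rows) in GFP+ and tdTomato+ luminal cells (green and red circles) and stroma (green and red squares), with filled symbols where the adjusted p was below 0.01. The filled symbols are Hey1 in tdTomato+ luminal cells at -2.95 and Notch3 in GFP+ stroma at -1.35, and Notch1 lies between 0.42 and 0.63 in the 4 subsets without passing in any.

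Of the other pathway genes 7 of 44 were called for E+P in tdTomato+ luminal cells, 3 higher and 4 lower, beside 14.1% of all genes tested, and 3 of 44 in GFP+ luminal cells, all lower, beside 5.96%. Both shares were near those of all genes. In tdTomato+ cells the γ-secretase subunit Ncstn rose by a log2 fold change of 1.57 ± 0.11 (SE, adjusted p = 1.12e-06), and Furin, which cuts the receptor on its way to the surface, by 1.14 ± 0.16 (SE, adjusted p = 0.000218). Maml2 fell by 1.09 (SE 0.16, adjusted p = 0.000306), and Dtx3l, Dtx3 and Kat2b were lower as well. In GFP+ luminal cells Numbl (-1.06 ± 0.24, SE), Dtx3 (-0.62 ± 0.11, SE) and Maml3 (-0.56 ± 0.12, SE) were lower. The responses of Ncstn (-1.54 ± 0.16, SE, adjusted p = 0.000321) and Furin (-1.27 ± 0.23, SE, adjusted p = 0.00505) differed between the 2 luminal subsets. In stroma edgeR called 0 of 46 in either color, with 3 below an unadjusted p of 0.05 in GFP+ and 8 in tdTomato+ cells, and DESeq2 called 1 and 0 and limma-voom 0 and 0.

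Genes most like each of the 8 genes that reached 5 CPM were looked up over the 28 libraries among 10731 protein-coding genes, by Pearson's r of log2 CPM. These values describe the libraries, which share mice and groups. Nearest to Notch3 was Pdgfa (r = 0.951), a ligand of the PDGF receptors, followed by Stk11 (r = 0.950). Nearest to Notch2 was Serpinb6a (r = 0.979), to Jag1 Fez2 (r = 0.970), to Hey1 Clmn (r = 0.957) and Deptor (r = 0.920), an inhibitor of mTOR, and to Notch1 the receptor Fgfr3 (r = 0.908). Hes1 and Dll4 had no gene above 0.840, with Pak3 (r = 0.840) and Impdh1 (r = 0.795) nearest.

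Some of the 10 genes share exon bases with another gene, and whether counting used the strand is not given in the sources used here. Notch2 shares 541 bases with Gm42820 on the same strand, which had 2979 counts over all libraries. Notch1, Notch3, Dll1 and Dll4 share bases with genes on the opposite strand, whose counts over all libraries ran from 48 to 979. Notch4, Jag1, Jag2, Hes1 and Hey1 share none with another gene.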

How the data were processed

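The deposited values are raw read counts per gene, made by the authors with STAR 2.5.2a on GRCm38.p5 from stranded low-input total-RNA libraries. The paper reports a wide range of RNA integrity and concentration, with the fragmentation time changed to suit RNA of lower quality. RNA quality entered no fit here, and its part in the differences was not tested. The GENCODE release and the strand setting of the counting are not given in the sources used here. Replicates are separate mice, and the 4 libraries of a mouse share its number in the labels.

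Of 50600 gene IDs, 50376 were paired with a symbol of GENCODE M21. Genes were tested with edgeR 4.0.16 (quasi-likelihood F-test, robust, TMM scaling, filterByExpr, R 4.3.3) in the 14 libraries of a lineage, or in all 28 between lineages. P-values were adjusted by Benjamini-Hochberg over all genes tested and called below 0.01, and standard errors were derived from log2 fold change and F. Exact permutation tests over mice used log2 CPM with a prior count of 2. Deviations of both libraries of a lineage from the same mouse correlated at a mean of 0.157 in luminal cells and 0.0496 in stroma, and the mouse was a block in an alternative fit. Other alternatives were DESeq2 1.42.0, limma-voom (limma 3.58.1), other scalings, no filter, a threshold of 0.05, other libraries in the fit, each mouse left out, and another gene length. The code was tested on simulated data.

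The genes and lists were chosen with earlier results of these data known. Of the other pathway genes called, at most 4 higher and 4 lower were named per comparison, by size of log2 fold change, where the higher group averaged 5 CPM or more and, for comparisons within mice, every mouse was on the same side. Genes of like pattern were the 3 of highest r among protein-coding genes with a group mean of 10 CPM or more. Heyl and Hes6 in luminal cells, Psen2 in stroma and Heyl for E+P in GFP+ stroma were added after their values were seen. A few genes that these rules name are not reported here.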

Additional observations from a re-analysis of the deposited data

Results flagged for a closer look

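In untreated GFP+ stroma 1 of the 4 mice stood apart for Notch1, at 94.6 CPM beside 104 to 105 CPM in the others. The gap to the nearest library was 0.902 of the whole range, above Dixon's critical value for 4 samples. For Dll4 in the same group the ratio was 0.879, with 1 mouse at 0.757 CPM and the others at or below 0.0917 CPM, which is under the floor of 3 counts. Chance alone flags about 1 in 20 groups, and each gene was read in 4 groups of this size.

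The difference between GFP+ and tdTomato+ cells differed between luminal cells and stroma for 8 genes in the test of that difference. Luminal minus stromal, the log2 values were 2.01 for Notch1, 6.02 for Notch3, 2.67 for Notch4, 5.38 for Dll1, 3.45 for Dll4, -1.77 for Jag1, 3.18 for Jag2 and 5.12 for Hey1.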

How the results depend on the processing

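Of the 100 log2 values given by 10 genes in 10 comparisons, 30 were called, and 0 of these changed sign under any alternative run. Of the values under alternatives other than leaving out a mouse, 769 kept direction and side of the threshold, 20 passed it newly, 8 lost it and 20 changed sign.

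The number of genes called for E+P in GFP+ luminal cells went from 0 to 1 at a threshold of 0.05, 1 with library size only and 2 in DESeq2, and from 0 to 1 with a mouse left out (1 without untreated mouse 3). In GFP+ stroma it went from 1 to 2 at 0.05, 2 in DESeq2, 2 with no filter and 0 in limma-voom. There it fell from 1 to 0 for 5 of the 7 mice left out (untreated mouse 1 or 3 or any 1 of the 3 E+P-treated mice). For the difference between responses it went from 0 to 1 in luminal cells at 0.05, and in stroma to 1 at 0.05, 1 in DESeq2 and 1 with no filter. The cause was not tested. With the longest transcript as gene length, the level per kilobase in the group of highest mean was 72.7 in place of 48.5 for Notch1 and 90.5 in place of 65.2 for Hes1.

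Values that changed sign were uncalled. With library size only they were Notch4 between luminal colors (0.0409) and between lineages (-0.182), Notch2 for E+P in tdTomato+ luminal cells (-0.0167), and Notch4 (0.00575) and Dll4 (0.0576) for the difference of the luminal responses. In that last test Notch1 was -0.0043 with DESeq2 size factors and -0.00424 in DESeq2, Notch4 0.907 and Dll1 -0.489 in limma-voom, and Dll4 0.00388 with no filter and 0.0105 with all libraries in one fit. Notch2 for E+P in GFP+ stroma was -0.00368 with DESeq2 size factors, -0.00374 in DESeq2, -0.000676 with all libraries and -0.00466 with only the groups compared, and Jag2 for E+P in GFP+ luminal cells was 0.0207 in limma-voom.

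With the mouse as a replicate block, Notch4 (0.167) and Dll1 (-0.105) changed sign for the difference of the luminal responses. For the 10 genes the block changed no call other than those given in the report. Untreated and E+P-treated mice share replicate numbers without being the same animals, and same-numbered libraries correlated at a mean of -0.0394 in luminal cells and 0.00957 in stroma. A block on that number changed the sign of Jag2 for E+P in GFP+ luminal cells (0.00545) and of Notch2 in GFP+ stroma (-0.0285), and with it Maml3 in GFP+ (adjusted p = 0.0196 in edgeR) and Kat2b in tdTomato+ luminal cells (adjusted p = 0.0130 in edgeR) did not pass for E+P. For comparisons of colors over both treatments, a fit of only the groups compared is the same fit as the one reported.

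With 1 mouse left out at a time, 640 values kept direction and side, 4 passed newly, 20 were lost and 36 changed sign. Those with a change of sign ranged from -0.597 to 0.27 for Notch4 between luminal colors, from -0.261 to 0.35 for Notch4 and from -0.000212 to 0.945 for Dll4 between lineages. For E+P in GFP+ luminal cells they ranged from -0.171 to 1.16 for Notch4, from -0.374 to 0.158 for Jag1 and from -0.624 to 0.835 for Jag2. For E+P in GFP+ stroma they ranged from -0.0507 to 0.051 for Notch2 and from -0.613 to 1.63 for Notch4, and in tdTomato+ stroma from -0.0186 to 0.151 for Notch2 and from -0.239 to 0.647 for Jag2. For the difference of the luminal responses they ranged from -0.136 to 0.198 for Notch1, from -0.859 to 0.879 for Notch4, from -0.562 to 0.516 for Dll1, from -3.1 to 0.881 for Dll4 and from -0.053 to 0.467 for Jag1. For the stromal responses they ranged from -0.00666 to 0.37 for Notch1, from -0.116 to 0.0215 for Notch2, from -0.282 to 2.33 for Notch4 and from -0.339 to 2.22 for Dll4.

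Scaling by library size only moved the median of all genes to 0.14 between luminal colors, where 3535 genes were then higher and 2287 lower in place of 2601 and 3144, and to -0.27 between lineages (5109 and 8055 in place of 6455 and 5972) and 0.27 for their difference (4110 and 2485 in place of 3319 and 3184). For E+P it moved to -0.14 in GFP+ luminal cells (355 and 634 in place of 525 and 460), to -0.27 in tdTomato+ luminal cells (731 and 2166 in place of 1262 and 1065) and to 0.13 for their difference (203 of 369 called genes higher in place of 129 of 375). Notch3 between lineages (-0.49, adjusted p = 6.34e-05) and Hes1 for the difference between lineages (0.73, adjusted p = 0.00692) then passed. Notch4, Dll4 and Jag2 lie near the floor in several groups, and changes in them were not detectable at this depth beyond those given.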
